A study of Mus musculus with 12 samples.

Results

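The myelin genes of mature oligodendrocytes were followed through the mRNA-seq data of 12 mouse brains. They are 9 genes, Mbp, Mobp, Mog, Mag, Cnp, Opalin, Trf, Bcas1 and Mal, taken by name as genes that a myelinating oligodendrocyte transcribes at a high level. All 9 were among the 14317 genes of the table, and all 9 reached the minimum level for testing, 0.5 FPKM in at least 6 libraries, as did 11743 genes in all. Tissue came from 6 Sham mice and 6 tMCAO/R mice, 1 library each. The question was how cerebral ischemia and reperfusion change the transcripts of the penumbra. Every mouse was labelled as a male C57BL/6J animal and was 8 weeks old. In tMCAO/R mice a nylon suture closed the middle cerebral artery for 60 min, and the tissue was taken after 24 h of reperfusion. The sampled tissue was labelled as the ischemic penumbra of the ipsilateral cortex, which is dissected by hand and holds all cell types of that block of brain. FPKM relate the fragments of a gene to its length and to the size of the library, so levels can be set side by side between genes.

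An oligodendrocyte of the brain wraps axons with many layers of its own cell membrane. The cytoplasm is squeezed out of most layers to give compact myelin, while the inner tongue next to the axon and the loops at the edge of each segment keep cytoplasm. Precursor cells that carry the receptor Pdgfra first become newly formed oligodendrocytes and then switch on the myelin genes, a step driven by the transcription factors Olig2, Sox10 and Myrf. In the adult brain myelin fills the white matter tracts and is thinner in the cortex, so the level of myelin transcripts in a dissected block also follows how much white matter the block holds.

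Several measurements of the libraries touch the results below. The fragment totals behind the FPKM, inferred from the FPKM values themselves, were 13057288 to 15808212 per library. The library of tMCAO/R mouse 4 stood apart, since its median Spearman correlation across genes with its group was 0.908, while the remaining tMCAO/R libraries had 0.964 to 0.974 and the Sham ones 0.976 to 0.987. The chromosome Y genes Ddx3y, Eif2s3y, Kdm5d and Uty were listed at 0 in all 6 Sham libraries and summed to 7.79 to 15.9 FPKM in the tMCAO/R libraries, which goes against the label of male for the Sham mice. Sex and group can therefore not be told apart in any comparison here. No member lies on a sex chromosome. Markers of brain regions also moved. Of 12 hippocampus markers, 10 fell and 0 rose, and their summed level was 285 to 392 FPKM in Sham and 88.0 to 118 FPKM in tMCAO/R mice. C1ql2, a gene of the dentate gyrus, had a mean of 115.6 FPKM in Sham and 2.31 FPKM in tMCAO/R mice. Of 12 striatum markers, 10 rose and 0 fell, and their sum was 50.04 to 67.9 FPKM in Sham and 95.3 to 663 FPKM in tMCAO/R mice. Of 12 tested cortical layer markers, 8 rose and 0 fell, and the sum over the 13 analysed was 47.8 to 59.9 and 98.9 to 152 FPKM. The dissected blocks thus differed in region markers between the groups, and the part of this difference in the myelin results was not tested.

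All 9 myelin genes had a lower mean in tMCAO/R than in Sham mice, and 7 of the 9 fell at an adjusted p under 0.01 by limma with Benjamini-Hochberg adjustment over all tested genes. In the same comparison 17.8% of the tested genes fell and 17.8% rose. The mean FPKM of tMCAO/R mice was 20.3% of the Sham mean for Opalin and 66.7% for Mal, with the other 7 genes in between. The median log2FC of the 9 was -1.35, beside -0.01 over all tested genes. For 5 of the 9, Opalin, Trf, Bcas1, Mbp and Mobp, every tMCAO/R mouse lay below every Sham mouse, as was the case for 13.2% of the tested genes. Without the library of tMCAO/R mouse 4, 7 of the 9 fell as well. In bulk tissue, fewer oligodendrocytes and less RNA per oligodendrocyte cannot be told apart. Summed over the 9 genes, the level was 751 ± 282 FPKM in Sham and 322 ± 84.6 FPKM in tMCAO/R mice as mean ± SD over 6 mice each. As a share of the inferred fragment totals, the 9 genes took 0.602% to 1.72% in Sham and 0.257% to 0.528% in tMCAO/R libraries. These ranges did not overlap.

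**Figure D1:**
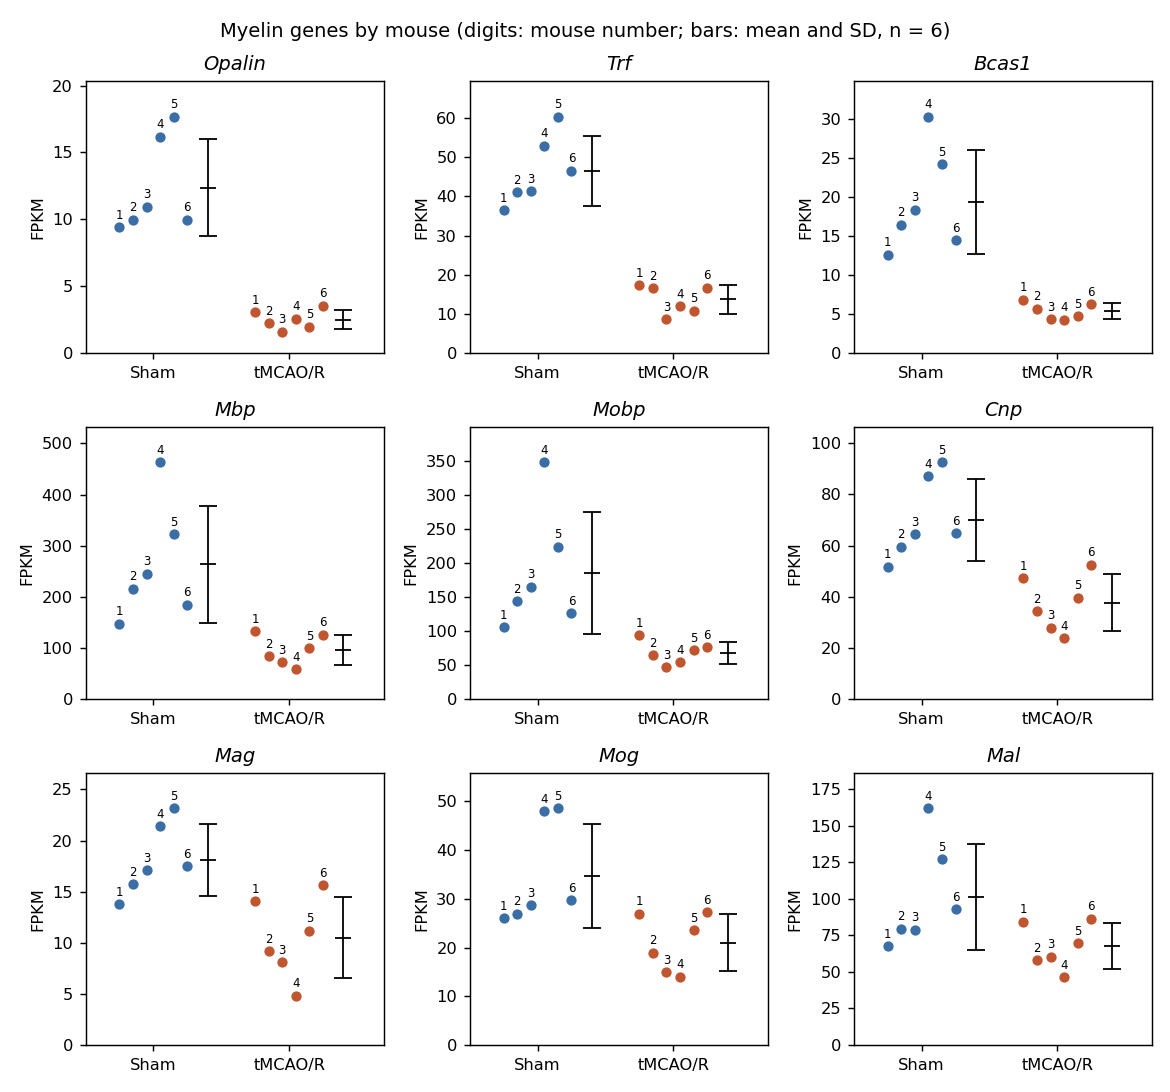
FPKM (linear axis from 0) of the 9 myelin genes in each mouse, 1 panel per gene, with a numbered dot per mouse for 6 Sham and 6 tMCAO/R mice and the mean ± SD at the side. All 9 means are lower in tMCAO/R mice, and the groups overlap for Cnp, Mag, Mog and Mal.

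Mbp and Mobp encode small basic proteins of compact myelin. Myelin basic protein glues the cytoplasmic faces of the membrane together, and its mRNA is carried out to the sheath and translated there. Mbp (GRCm39, chr18:82493207-82603763, plus strand, 7 exons in the canonical transcript) was the highest of the 9. Its level in Sham mice had a lowest value of 148 FPKM, a median of 231 FPKM and a highest value of 463 FPKM, and in tMCAO/R mice these were 59.2, 92.4 and 132 FPKM. The groups did not overlap, but the lowest Sham mouse, mouse 1, lay close above the highest tMCAO/R mouse, also numbered 1. The log2FC was -1.40 (SE 0.26, adjusted p = 0.000537, limma). Mobp (chr9:119973770-120011273, plus strand, 4 exons) had 105, 154 and 348 FPKM as lowest, median and highest Sham values and 47.3, 67.9 and 93.7 FPKM in tMCAO/R mice. Again no tMCAO/R mouse reached a Sham mouse, and Sham mouse 4 was the highest in both genes. The log2FC of Mobp was -1.35 (SE 0.25, adjusted p = 0.000529, limma).

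Opalin, Mag and Mog encode membrane proteins of the myelin sheath. Opalin is a glycoprotein of mature oligodendrocytes of the central nervous system. It was the lowest of the 9 (chr19:41045254-41065553, minus strand, 6 exons), with 9.42, 10.5 and 17.7 FPKM as lowest, median and highest Sham values and 1.63, 2.43 and 3.57 FPKM in tMCAO/R mice. The lowest Sham value was above 2 times the highest tMCAO/R value, and the log2FC of -1.91 (SE 0.17, adjusted p = 1.08e-06, limma) was the largest fall of the 9. Its depth was also the lowest, at 113 to 1196 fragments per library. Mag, the adhesion protein that faces the axon on the innermost myelin layer, lies on the minus strand of chr7:30598464-30614474 with 11 exons. Its Sham values ran from 13.8 FPKM over a median of 17.3 to 23.2 FPKM, and its tMCAO/R values from 4.82 FPKM over 10.2 to 15.6 FPKM. The groups overlapped in Mag, since tMCAO/R mice 1 and 6 lay above the lowest Sham mouse. The log2FC of Mag was -0.80 (SE 0.22, adjusted p = 0.00708, limma). This call was not kept when Sham mouse 2, 3, 4, 5 or 6 or tMCAO/R mouse 2, 3 or 5 was left out, with adjusted p between 0.0105 and 0.0193 in these 8 of 12 fits. Mog, an immunoglobulin-domain protein on the outermost surface of the sheath (chr17:37321521-37334350, minus strand, 8 exons), had 26.0, 29.2 and 48.6 FPKM in Sham and 14.0, 21.3 and 27.3 FPKM in tMCAO/R mice. Here too tMCAO/R mice 1 and 6 lay within the Sham range. The log2FC of Mog was -0.69 (SE 0.20), and its adjusted p of 0.0111 (limma) missed the threshold. It passed without tMCAO/R mouse 1 (0.00866) or mouse 6 (0.00810).

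Cnp and Bcas1 encode proteins of the cytoplasm-holding parts of the sheath and of young sheaths. The phosphodiesterase Cnp binds the membrane and the cytoskeleton and keeps cytoplasmic channels open. Cnp (chr11:100465730-100482936, plus strand, 4 exons) had 51.8, 64.7 and 92.5 FPKM as lowest, median and highest Sham values and 23.7, 37.0 and 52.6 FPKM in tMCAO/R mice. Of the tMCAO/R mice, 5 lay below the lowest Sham mouse and mouse 6 was just above it. The log2FC was -0.90 (SE 0.19, adjusted p = 0.00155, limma). Bcas1 marks oligodendrocytes that have begun to myelinate and remains in their myelin. Bcas1 (chr2:170188911-170269765, minus strand, 13 exons) had 12.6, 17.4 and 30.3 FPKM in Sham and 4.31, 5.24 and 6.87 FPKM in tMCAO/R mice. The groups were far apart, and the log2FC was -1.63 (SE 0.18, adjusted p = 8.38e-06, limma).

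Trf and Mal stand for iron supply and membrane traffic. Transferrin, the product of Trf, binds iron, and in the brain it is made by oligodendrocytes and by the choroid plexus. Trf (chr9:103081200-103107814, minus strand, 17 exons) had 36.4, 44.0 and 60.3 FPKM as lowest, median and highest Sham values and 8.72, 14.3 and 17.4 FPKM in tMCAO/R mice. The lowest Sham mouse was above 2 times the highest tMCAO/R mouse, and the log2FC was -1.71 (SE 0.17, adjusted p = 2.78e-06, limma). Choroid plexus transcripts differed between the groups as well. The 8 choroid plexus markers summed to 43.8 to 1907 FPKM in Sham and 11.3 to 16.3 FPKM in tMCAO/R mice, and Ttr, which encodes transthyretin, reached 1844 FPKM in Sham mouse 4. Most of the tMCAO/R sum was Enpp2, at 10.3 to 12.9 FPKM, which also stands in the list of myelin lipid and metabolite enzymes. Ttr was at most 2.50 FPKM in tMCAO/R mice. Within the Sham group, Trf was highest in mouse 5, whose choroid plexus sum was 105 FPKM, and second in mouse 4. Sham mouse 1 had the next highest choroid plexus sum after mouse 4, at 359 FPKM, and the lowest Trf, at 36.4 FPKM. The part of choroid plexus tissue in the fall of Trf between the groups was not tested. Mal is a proteolipid that sorts glycolipid-rich membrane, in myelin and in some epithelia. It lies on the minus strand of chr2:127475142-127498615 with 4 exons. Mal had 67.4, 86.2 and 162 FPKM in Sham and 46.5, 65.2 and 86.4 FPKM in tMCAO/R mice, so only 3 tMCAO/R mice lay below the lowest Sham mouse. The log2FC of Mal was -0.54 (SE 0.21), with an adjusted p of 0.0431 (limma) that missed the threshold.

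The size of the change was then compared between members within each mouse. For each pair, the difference of the log2(FPKM + 1) values was taken in every mouse and compared between the groups by a two-sided exact permutation test, with adjustment over the 36 pairs and a threshold of 0.05. In 24 of the 36 pairs the members changed by different amounts. The widest gap lay between Opalin and Mal, where Opalin fell by 1.37 more on the log2 scale (SE 0.15, exact p = 0.00216, the smallest the design can give, adjusted p = 0.00519). Mbp and Mobp had a difference of -0.05 between their log2FC (SE 0.09, exact p = 0.613). Trf and Bcas1 had a difference of -0.08 (SE 0.14), Opalin and Trf of -0.20 (SE 0.11, adjusted p = 0.122 by the exact test), and Mag and Cnp of 0.11 (SE 0.07). Opalin differed from Mobp, Cnp, Mag, Mog and Mal, and its pair with Mbp (0.51, adjusted p = 0.0509, exact test) did not pass. Cnp differed from Mog (0.21) and Mal (0.36), and its adjusted p was 0.0195 by the exact test in both pairs. The count of differing pairs was 22 to 28 with 1 mouse left out, highest without Sham mouse 4. With 0.1 or 0.5 FPKM added in place of 1, and on whole fragments, it was 27. On these other scales the pairs of Opalin with Trf, Bcas1 and Mbp all passed, so their misses depended on the scale. The order of levels also differed between the groups. In Sham mice the order of mean FPKM was Mbp, Mobp, Mal, Cnp, Trf, Mog, Bcas1, Mag and Opalin, and each gene was above its next neighbour in all 6 mice except Bcas1 over Mag, which held in 4 of 6. In tMCAO/R mice Trf dropped below Mog in 6 of 6 mice, and Bcas1 below Mag in 6 of 6, while Mobp was above Mal in 4 of 6 and Trf above Mag in 5 of 6.

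**Figure D2:**
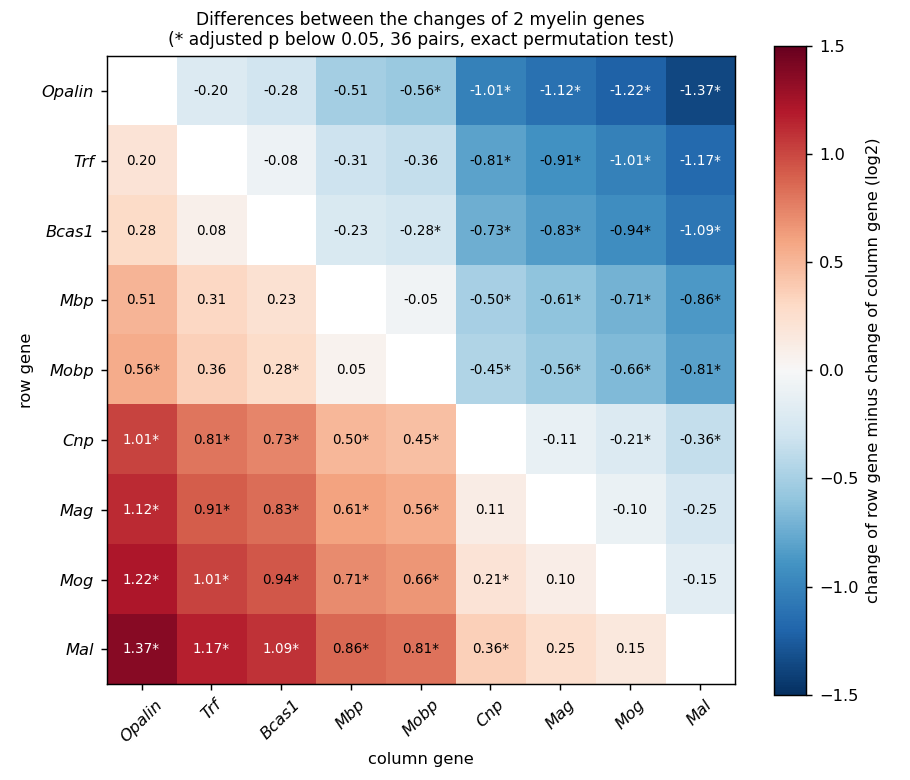
Difference between the log2 fold changes of each pair of members, as a grid of the 9 genes by the 9 genes, with the pairs past the adjusted threshold of 0.05 marked. Of 36 pairs, 24 are past it, with the widest difference of 1.37 between Opalin and Mal and that of Mbp and Mobp at 0.05.

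The 9 genes put the same mice at the ends of each group. Within the Sham group mouse 1 was the lowest in 9 of 9 genes, and mice 4 and 5 were the 2 highest in all 9. Within the tMCAO/R group mice 1 and 6 were the 2 highest in all 9, while the lowest was mouse 4 in 6 genes and mouse 3 in 3. Averaged over the 9 genes, the distance of a mouse from its group mean on the log2 scale ran from -0.47 in Sham mouse 1 to 0.56 in Sham mouse 4, and from -0.42 in tMCAO/R mouse 4 to 0.39 in mouse 1. The spread was not equal among genes. The highest Sham mouse had 3.30 times the FPKM of the lowest for Mobp and 3.14 times for Mbp, but 1.66 times for Trf. The CV over Sham mice was 48.2% for Mobp and 43.5% for Mbp, and 19.0% for Trf and 19.4% for Mag. In tMCAO/R mice the largest CV was that of Mag at 37.9%, whose level in mouse 4 was 4.82 FPKM, and the smallest was that of Bcas1 at 19.7%. Other markers ran alongside these ranks in part. The striatum sum in tMCAO/R mice 1 to 6 was 663, 366, 95.3, 97.6, 231 and 368 FPKM. In this group the mice lowest in the myelin genes, 3 and 4, were also lowest in striatum markers, and mouse 1 was among the highest in both. In Sham mice 1 to 6 the striatum sum was 50.04, 51.3, 65.3, 50.2, 59.1 and 67.9 FPKM. There mouse 1 was lowest in both, but mouse 4, with the highest myelin sum, was next to lowest in striatum markers. The part of tissue composition in the ranks of the mice was not tested.

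**Figure D3:**
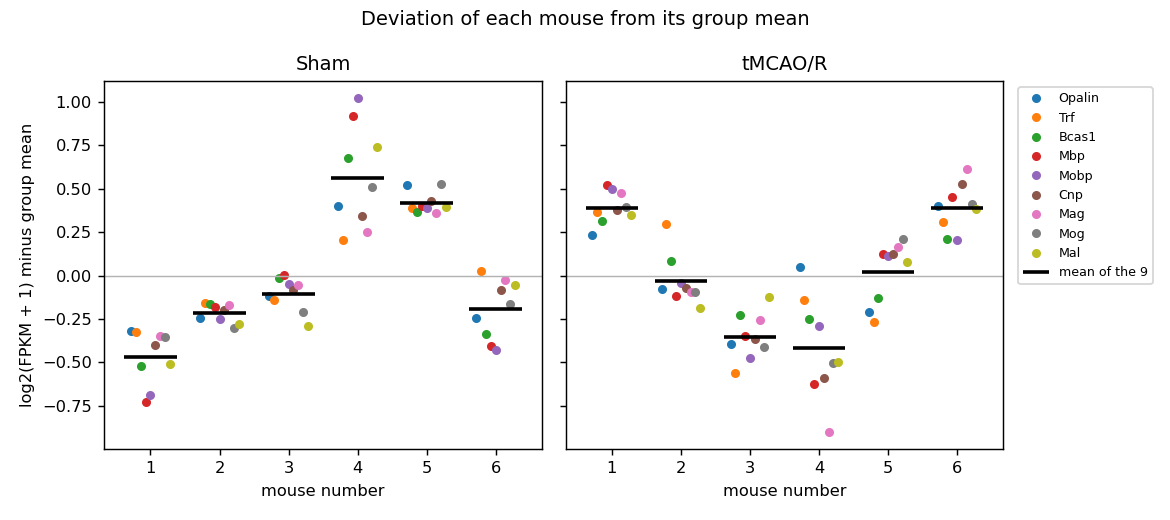
Distance of each of the 9 genes from its group mean, in log2(FPKM + 1), for every mouse, with a dot per gene and a black bar at the mean of the 9. Sham mice 4 and 5 and tMCAO/R mice 1 and 6 sit above their group mean in 9 of 9 genes, and Sham mice 1 and 2 and tMCAO/R mouse 3 in 0 of 9.

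Olig1, Olig2 and Sox10 are transcription factors found from the precursor to the mature oligodendrocyte, so each member was also set against them within each mouse. Sox10 had 7.78, 10.2 and 13.6 FPKM as lowest, median and highest Sham values and 2.09, 3.57 and 5.79 FPKM in tMCAO/R mice. The groups did not overlap, and Sox10 fell with a log2FC of -1.25 (SE 0.17, adjusted p = 3.60e-05, limma). Olig1 had a mean of 77.3 ± 4.42 FPKM in Sham and of 65.4 ± 9.90 FPKM after tMCAO/R (SD, n = 6 each), with a log2FC of -0.25 that missed the threshold (adjusted p = 0.0724, limma). Olig2 had 15.6 ± 1.63 and 20.6 ± 6.22 FPKM, with a log2FC of 0.34 (adjusted p = 0.0718, limma). Of the 27 ratios of a member to a factor, 24 changed by the two-sided exact permutation test at an adjusted p under 0.05. All 9 members fell relative to Olig2. Relative to Olig1, 8 fell, and Mal had a difference of -0.29 (adjusted p = 0.157, exact test). Relative to Sox10 the members split. Opalin (-0.66), Trf (-0.46) and Bcas1 (-0.38) fell by more than Sox10, while Cnp (0.35), Mag (0.45), Mog (0.56) and Mal (0.71) had a smaller change, and Mbp (-0.15) and Mobp (-0.10) did not pass. Of the 3 larger falls, Opalin passed without any 1 mouse, and it alone passed when 0.1 or 0.5 FPKM was added in place of 1, on whole fragments and without Sham mouse 4. Trf was also lost without Sham mouse 2 or 6, and Bcas1 without tMCAO/R mouse 1, 2, 3 or 5. Cnp did not pass against Sox10 without Sham mouse 1, 2, 3, 5 or 6, nor Mog against Olig1 without tMCAO/R mouse 2, 3, 4 or 5.

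The sequence at the start of 4 members is shown because they hold letters of the motifs of these factors and differ in how far they fell: Opalin and Trf with the largest falls, Mobp in between and Cnp with a smaller one. Each run is 300 bases of GRCm39, from 250 bases before to 50 bases after the start of the canonical GENCODE transcript, on the strand of the gene and written 5′ to 3′. Opalin is at chr19:41065503-41065802 (minus), Trf at chr9:103107594-103107893 (minus), Mobp at chr9:119978493-119978792 (plus) and Cnp at chr11:100465480-100465779 (plus). Capitals mark matches, on either strand, to the letters CTGGCAC or CTGGTAC of the MYRF motif, ACAAAG of the SOX motif and CAGCTG of an E-box, none of which overlap.
Opalin: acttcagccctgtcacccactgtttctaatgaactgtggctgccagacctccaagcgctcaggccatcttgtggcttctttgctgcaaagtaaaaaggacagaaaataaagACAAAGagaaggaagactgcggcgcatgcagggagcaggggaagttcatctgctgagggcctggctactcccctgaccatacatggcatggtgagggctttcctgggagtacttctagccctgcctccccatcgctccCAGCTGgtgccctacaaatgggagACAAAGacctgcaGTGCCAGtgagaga
Trf: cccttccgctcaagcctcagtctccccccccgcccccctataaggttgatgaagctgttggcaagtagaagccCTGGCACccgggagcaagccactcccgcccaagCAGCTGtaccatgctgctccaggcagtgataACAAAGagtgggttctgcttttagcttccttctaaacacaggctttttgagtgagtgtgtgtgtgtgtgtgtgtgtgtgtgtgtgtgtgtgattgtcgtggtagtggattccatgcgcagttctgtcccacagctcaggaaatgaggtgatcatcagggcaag
Mobp: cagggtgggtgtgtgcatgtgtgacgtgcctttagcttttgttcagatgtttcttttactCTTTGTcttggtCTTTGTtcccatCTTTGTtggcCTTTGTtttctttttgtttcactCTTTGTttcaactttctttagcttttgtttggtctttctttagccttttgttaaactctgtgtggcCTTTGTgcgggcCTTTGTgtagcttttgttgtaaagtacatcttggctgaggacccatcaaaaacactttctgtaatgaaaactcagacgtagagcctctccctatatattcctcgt
Cnp: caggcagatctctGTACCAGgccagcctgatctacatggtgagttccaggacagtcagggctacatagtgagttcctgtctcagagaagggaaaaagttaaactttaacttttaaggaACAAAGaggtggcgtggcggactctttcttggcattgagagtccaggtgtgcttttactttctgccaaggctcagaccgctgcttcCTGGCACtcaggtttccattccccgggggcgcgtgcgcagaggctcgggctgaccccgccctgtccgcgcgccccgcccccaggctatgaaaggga
In these windows Opalin holds 2 SOX matches, 1 E-box across the start base and 1 MYRF match after it. Trf holds 1 of each before the start. Mobp holds 7 SOX matches, all on the other strand, in a window of 40.3% GC, and Cnp holds 1 SOX match and both forms of the MYRF letters. Over all 9 members, ACAAAG was in 6, CTGGCAC in 3, CTGGTAC in 2 and CAGCTG in 3 windows, and none of these was found in the windows of Bcas1, Mag and Mal. Among the same windows of 14305 genes, ACAAAG was in 15.1%, CTGGCAC in 5.12%, CTGGTAC in 2.05% and CAGCTG in 14.4%. The median GC content of all these windows was 58%, while Opalin and Trf had 54.3%, Mobp 40.3% and Cnp 56.7%. The part of base composition in the motif counts was not tested. The letters TATAAA, also searched, were in 8.23% of all windows and in 0 of the 9. Repeated sequence was not left out of the windows. A match is a run of letters and describes no binding.

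Other genes of the oligodendrocyte lineage were taken from lists. Of 19 other myelin membrane and junction genes, 14 fell and 0 rose, with a median log2FC of -0.96, and their sum was 358 to 580 FPKM in Sham and 245 to 345 FPKM in tMCAO/R mice. Ppp1r14a had a mean of 22.4 ± 5.33 FPKM in Sham and of 3.80 ± 1.18 FPKM after tMCAO/R (SD, n = 6 each), a log2FC of -2.30. Gjb1, a connexin of oligodendrocyte gap junctions, fell from 5.34 to 1.698 FPKM (log2FC -1.25). Cldn11, which forms the tight junctions of the sheath, had 113 and 85.2 FPKM (log2FC -0.41, adjusted p = 0.119, limma). Tppp lay the other way, with 91.8 FPKM in Sham and 103 FPKM in tMCAO/R mice (log2FC 0.17, adjusted p = 0.188, limma). Of the 19 genes, 16 had a negative log2FC. Of 10 enzymes of myelin lipids and metabolites, 7 fell and 0 rose, with a median log2FC of -0.66. Among them were Qdpr, dihydropteridine reductase (log2FC -1.43), and Car2, a carbonic anhydrase, from 90.2 to 38.2 FPKM.

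The transcription factors and the early stages did not all move with the myelin genes. Of 9 tested lineage transcription factors, 5 fell and 1, Zfp488, rose. Nkx6-2, a homeobox factor of oligodendrocytes, fell with a log2FC of -1.45, and Myrf, which drives myelin genes, from 3.11 to 1.59 FPKM (log2FC -0.67, adjusted p = 0.00108, limma). Of 8 tested genes of newly formed oligodendrocytes, 3 rose, 2 fell and 3 were not called, with a median log2FC of 0.08. Over all tested genes, 17.8% rose and 17.8% fell. Of 10 tested genes of oligodendrocyte precursors, 7 rose and 0 fell, with a median log2FC of 0.72, and the sum over the 12 listed was 30.5 to 38.2 FPKM in Sham and 44.1 to 68.3 FPKM in tMCAO/R mice. Gpr17, a receptor of cells that are about to differentiate, rose from 3.60 to 10.3 FPKM (log2FC 1.30, adjusted p = 2.27e-05, limma). Pdgfra rose from 1.25 to 2.81 FPKM (log2FC 0.75), and Cacng4 from 6.96 to 12.1 FPKM (log2FC 0.68). C1ql1 had a log2FC of -0.33 (adjusted p = 0.176, limma). Schwann cells, which make the myelin of peripheral nerves, share several of these genes. Of the 3 Schwann cell markers tested, 0 were called in either direction, and the sum of the 6 analysed was 4.19 to 6.17 FPKM in Sham and 4.82 to 6.28 FPKM in tMCAO/R mice.

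**Figure D4:**
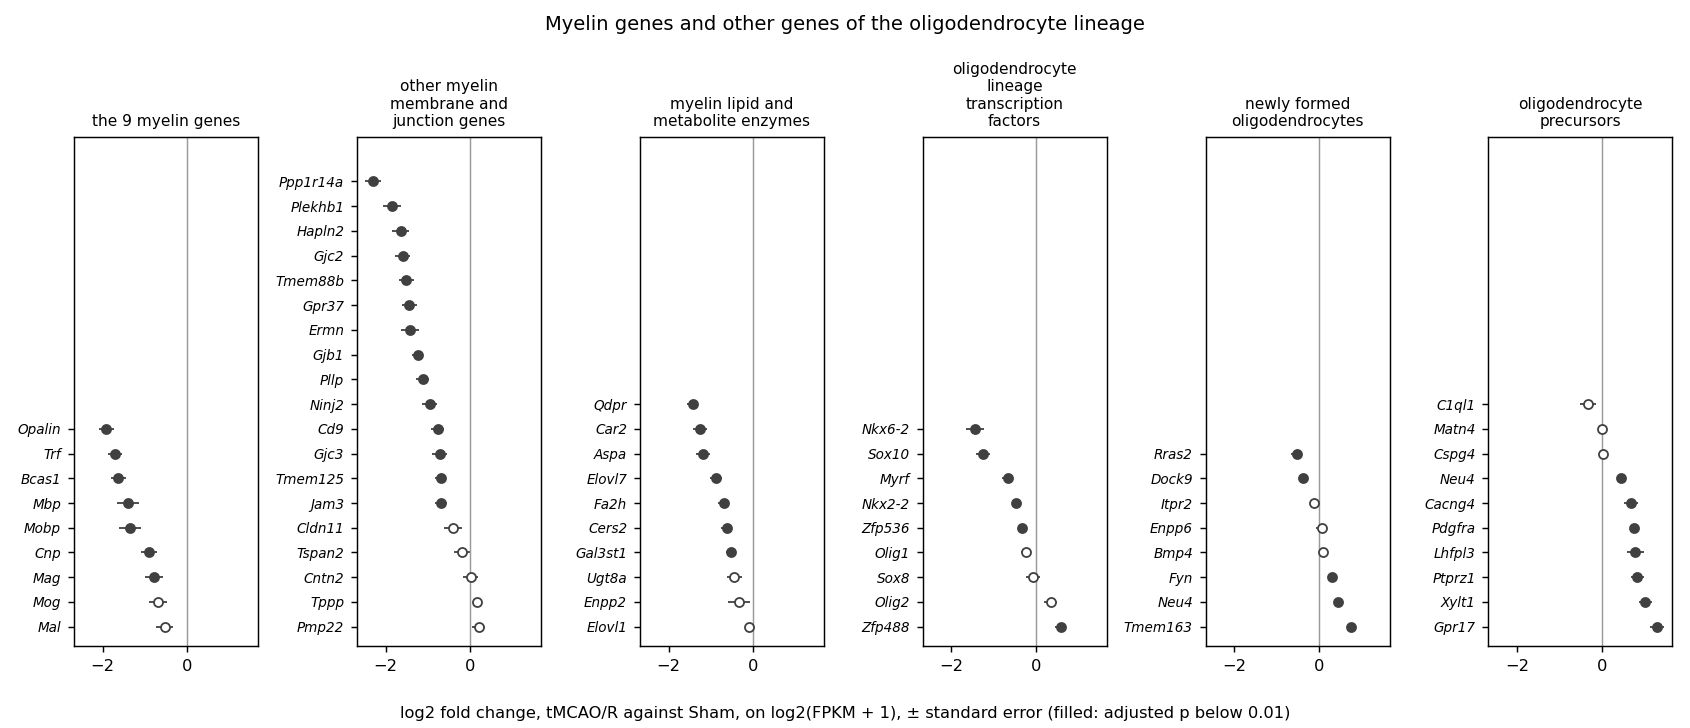
Log2 fold change (tMCAO/R against Sham, with SE) of the 9 members and of the genes of the oligodendrocyte lists, 1 row per gene, with called and not called genes told apart by fill. The 9 members lie between -1.91 and -0.54, and the tested precursor genes have a median of 0.72.

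The genes that followed the same mice as the 9 were sought without regard to the group difference. The 9451 genes outside the list with a mean of at least 1 FPKM in both groups were used. Their log2(FPKM + 1) was centred within each group and compared over the 12 mice with the mean of the members by the root mean square difference. The median over these genes was 0.385, and a gene without any spread within the groups would lie at 0.342. The members themselves lay at 0.0892 to 0.208, but each is part of the mean it was compared with, which draws it nearer. The nearest gene outside the list was Tmem63a, an ion channel of the membrane, at 0.102, and it had 5.95 ± 1.59 FPKM in Sham and 1.55 ± 0.497 FPKM in tMCAO/R mice (log2FC -1.44). Next came Cldn11 (0.134), Cers2 (0.143), Carhsp1 (0.148), Sec14l5 (0.149), Adssl1 (0.152), Rhog (0.152), Ttyh2 (0.153), Arsg (0.158) and Myrf (0.160). Of these 10, 7 fell and 0 rose, and 3 stood in the oligodendrocyte lists. Over all tested genes 17.8% fell and 17.8% rose, and the share among the 9451 compared genes was not computed. Without tMCAO/R mouse 4, Tmem63a was still the nearest and 8 of the 10 were still among the 10 nearest.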

How the data were processed

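The mRNA was selected with oligo(dT) and sequenced in pairs, 1 library per mouse. Per the paper and the submitters' processing notes, the authors used fastp, HISAT2 2.2.1 on GRCm39, HTSeq 2.0.2 and DESeq2 1.24.0. The table the authors deposited holds FPKM, 1 column per library, and all of its columns were used. The annotation release, strand setting and gene filter are not given in the sources used here, so overlapping and antisense genes could share reads. Identifiers were matched to GENCODE M39 (14315 of 14317).

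Groups came from the sample labels, and nothing else was used to form them. The FPKM branch of the design was used: log2(FPKM + 1) values were fitted in R 4.3.3 with limma 3.58.1 (lmFit, then eBayes with trend), over all genes that reached 0.5 FPKM in 6 or more libraries, with Benjamini-Hochberg adjustment and a threshold of 0.01. A log2FC is on this scale, which understates the change of low genes. Pairs and ratios were compared per mouse by exact permutation in Python 3.11.15. The FPKM step in whole fragments, recovered for 14304 genes within 1e-05, and limma-voom on these fragments served as an alternative. The same without tMCAO/R mouse 4 was chosen after seeing the data. Of the steps, the limma and limma-voom fits were tested on simulated data. The members and all gene lists were chosen with earlier results of these data known. Named are the members, Olig1, Olig2 and Sox10, the 10 nearest profiles and, per list, at most the 2 genes of smallest p and the 2 of highest Sham level. 1 gene of the list of other myelin genes was left out and is not reported here. Other names, such as Zfp488, were chosen after their values were seen. The mouse is the replicate (n = 6 per group), and p-values cover the spread between mice.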

Additional observations from a re-analysis of the deposited data

How the results depend on the processing

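Under the 21 alternatives of the limma fit, no member rose and none changed direction. Leaving out 1 mouse at a time gave 6 to 8 falling members and 0 to 0 rising ones, 22 to 28 differing pairs and 22 to 24 changed ratios. Mag was the one call lost, in 8 of these fits, and Mog the one gained, in 2. Over the other settings the log2FC lay between -2.31 and -1.91 for Opalin and between -0.55 and -0.35 for Mal. Replicate numbers are shared between the groups but did not pair the mice, with correlations of -0.12 to 0.22 between same-numbered mice and no mouse most like its own number. With the replicate number as a block, 6 members fell and 0 rose (Mag adjusted p = 0.0160, limma), 23 pairs differed and 22 ratios changed. Opalin, the member with the fewest fragments (113 to 1196 per library), kept its call under all 21 alternatives of the limma fit. Of the other named genes, Ttr was not called by limma-voom (log2FC -9.36, adjusted p = 0.0199), and Cacng4 was not called with the block (0.0111).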

Other observations

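Markers of other cell types in the block were counted in the same way. Over all tested genes, 17.8% fell and 17.8% rose. Of 12 neuron markers 5 rose, among them Gad2, and 1, Nefl, fell. Their summed levels were 815 to 970 FPKM in Sham and 918 to 1202 FPKM in tMCAO/R mice. Of 10 astrocyte markers 1, Slc1a3, rose and 3 fell, Gfap among them. Of 10 microglia markers 1 rose and 4 fell, Cx3cr1 among them, and the median log2FC was -0.60. Of 10 endothelial markers 4 rose, Cdh5 among them, and 3 fell, Cldn5 among them. All 5 red cell genes fell, with a median log2FC of -1.17, and of 4 tested choroid plexus markers 2 fell and 0 rose.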
